A study of Mus musculus with 12 samples.

Results

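Regnase-1, encoded by Zc3h12a, and Regnase-3, encoded by Zc3h12c, were set against each other directly by comparing mast cells depleted of one protein with mast cells depleted of the other. The comparison used the 3 samples transfected with an siRNA cocktail against Zc3h12a (si12A) and the 3 samples transfected with a cocktail against Zc3h12c (si12C), 6 of the 12 samples of the series, chosen by the name of the siRNA and paired by replicate number. Each number goes with a code that the 4 groups share in the count headers. Equal numbers were taken to stand for cells of 1 mouse, although no label names an animal. Mouse 1, 2 and 3 below stand for these numbers, and what else the samples of 1 number share is not stated. All samples were bone marrow-derived mast cells (BMMCs), grown from mouse bone marrow with IL-3, activated through IgE and its antigen over 2 h, 48 h after transfection. A further 3 samples received siGLO, a control siRNA that marks transfected cells, and 3 received both cocktails (si12A+C). On that reading the groups share the mice, and they share the transfection and the stimulation and differ in the siRNA, each arm having received a single mixture of siRNAs. From 50 ng of RNA per sample, transcripts of a myeloid immunity panel were counted by the NanoString nCounter assay, which counts colour-coded probes bound to single RNA molecules. Of 754 endogenous and reference probes, 496 passed the background of the negative control probes and were tested. The study used mice on a C57BL/6 background and took bone marrow at an age of 6 to 8 weeks, and their sex is not stated in the sources used here.

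Regnase proteins are RNA-binding proteins with an endonuclease domain. Regnase-1 is best known for cutting stem-loops in the 3′ untranslated regions of inflammatory transcripts, so that cytokine messages are short-lived, and Regnase-3 is a less studied relative with a similar nuclease domain. In mast cells, antigen that crosslinks IgE on its receptor starts within minutes a wave of immediate early transcription factors, followed by cytokines and chemokines. A direct comparison of both single depletions asks which of these transcripts respond differently to the loss of one relative than to the loss of the other.

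Each cocktail held 4 siRNAs of 19 bases, shown because they are the only designed difference between both groups. Both targets are given on GRCm38.p6, with Zc3h12a at chr4:125118414-125127881 and Zc3h12c at chr9:52109569-52168730. Capitals mark the 11 bases that the first Zc3h12c siRNA shares with the forward primer used to quantify Zc3h12c by PCR.
Zc3h12a siRNA 1: gcagagatcctgtcttaca
Zc3h12a siRNA 2: gagcgaggccacacagata
Zc3h12a siRNA 3: gaaatgtacgtatggaatc
Zc3h12a siRNA 4: gaaagggctggtgtatata
Zc3h12c siRNA 1: GCCCAAGTCTGgataattt
Zc3h12c siRNA 2: gcacttaagttaggttatt
Zc3h12c siRNA 3: gcactacacctttaagcaa
Zc3h12c siRNA 4: ggatattattccatgttga
The longest run that any siRNA of one cocktail shared with one of the other, on either strand, was 7 bases. The G and C content was 36.8 to 57.9% in the Zc3h12a siRNAs and 31.6 to 42.1% in the Zc3h12c siRNAs. Transcripts that either cocktail may bind outside its target were not measured separately, since each group received 1 cocktail.

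The libraries differed in yield. Totals were 700741 to 795758 counts in si12A and 527287 to 727472 in si12C, and the geometric mean of the positive controls in si12A was 1.07, 2.05 and 1.46 times that in si12C of mouse 1, 2 and 3. The part of this gap in the results was not tested. Neither Zc3h12a nor Zc3h12c is on the panel, so the depletion could not be checked in these counts. By PCR and Western blot the study found both depletions highly effective. It also found significantly more Regnase-1 after Regnase-3 was depleted, so si12C need not stand for a loss of Regnase-3 alone. Mast cell genes were abundant in all 6 samples, with a summed scaled count over 24 genes of 185638 to 229861 in si12A and 195253 to 237701 in si12C. Of 20 macrophage and monocyte markers 13 were at background, among them Csf1r, Cd14 and C1qa, and the sum of the list was 2427 to 4450 in si12A and 2249 to 4333 in si12C. Most of this sum was Ly6c1 alone, with 2103, 4088 and 2753 scaled counts in si12A and 1911, 3852 and 2585 in si12C. In RNA from whole cultures, fewer cells of a type and less RNA per cell cannot be told apart.

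A small set of transcripts differed between depletion of Regnase-1 and depletion of Regnase-3. With the mouse as a block, 24 of 496 transcripts (4.84%) were called, which required a log2 fold change of more than 0.5 in either direction and an adjusted p no greater than 0.05. In si12A, 12 transcripts (2.42%) were higher and 12 (2.42%) were lower relative to si12C. Immediate early and feedback genes of activation, by a list chosen with earlier results of these data known, made up 7 of the 12 higher transcripts. The lower ones held a tetraspanin, the chemokine Ccl5, the growth factor Csf2 and 2 genes of dividing cells. All log2 fold changes are si12A over si12C unless another comparison is named, with the standard error (SE). The scaled counts of 13 of the 24 did not overlap between both groups, against 62 of all 496 tested (12.5%). The 24 moved the same way in 3 of 3 mice, as did 234 of the 496 (47.2%). Without the fold minimum 31 transcripts (6.25%) passed the adjusted p, and 136 (27.4%) had an unadjusted p under 0.05. Fold changes are relative to the TMM scaling. Scaling on the positive controls, on all reference genes or on the 10 well-detected reference genes moved the median of all transcripts to -0.31, -0.11 or 0.26, so list medians smaller than these shifts have no settled sign.

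**Figure D1:**
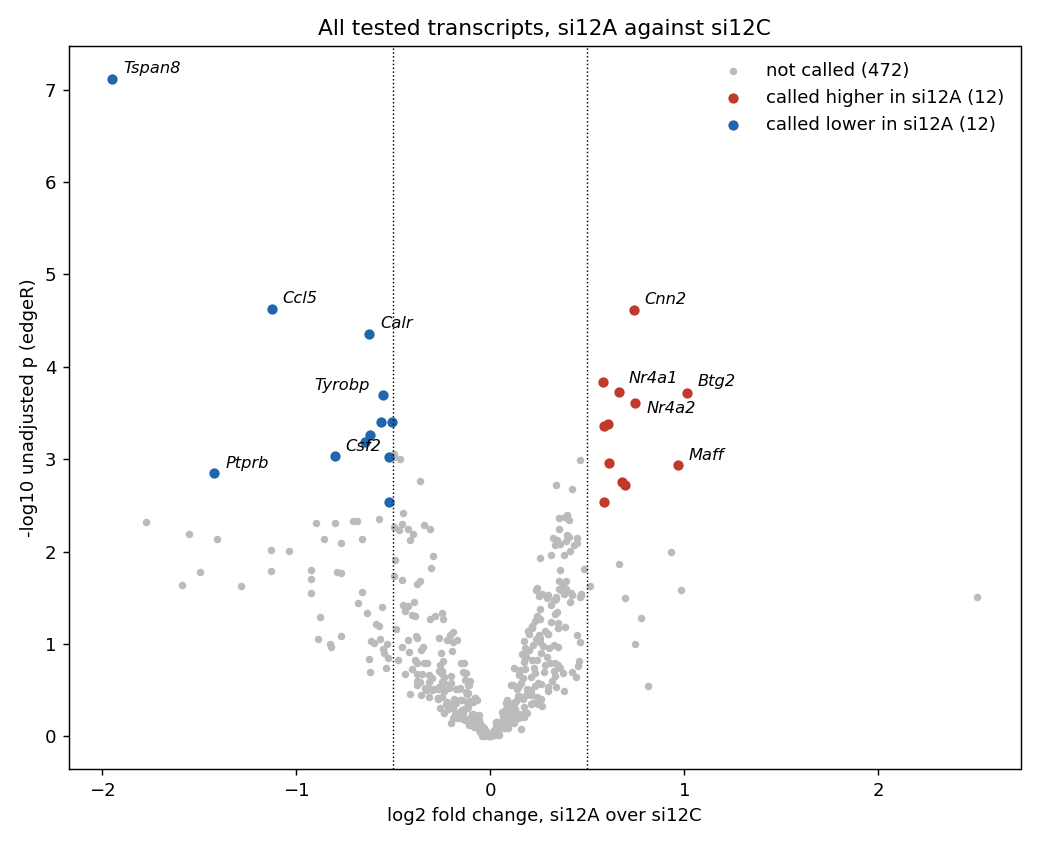
Each point is 1 of 496 tested transcripts, with the log2 fold change of si12A over si12C on the x axis and -log10 of the unadjusted edgeR p on the y axis. Dotted lines mark log2 fold changes of -0.5 and 0.5. Tspan8, at -1.95, has the smallest p, and the 12 higher transcripts reach 1.01 for Btg2.

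The list of early activation genes held 32 tested members, of which 7 were higher and 0 were lower, against 2.42% in each direction over all. The list was chosen with earlier results of these data known, so these counts describe the list and are no test of it. Its median log2 fold change was 0.23 (-0.10 when scaled on the positive controls) against 0.00 over all transcripts tested. Btg2, an antiproliferative gene induced early by many stimuli, differed most. Its scaled counts in mouse 1, 2 and 3 were 333, 365 and 234 in si12A and 154, 144 and 156 in si12C. All si12A samples lay above all si12C samples, and the difference was 1.01 ± 0.20 (SE, n = 3, adjusted p = 0.0126). Maff, a small Maf transcription factor without an activation domain, had 55.6, 60.3 and 50.7 counts in si12A and 25.2, 45.6 and 18.5 in si12C. These ranges did not overlap, but the si12C sample of mouse 3 lay below its background threshold of 19.8. The fold change of Maff was 0.97 ± 0.23 (adjusted p = 0.0249), or 1.43 with the negative controls subtracted.

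Both tested orphan nuclear receptors of the NR4A family were higher, and their levels differed more between mice than between siRNAs. Nr4a1 had scaled counts of 2643, 5639 and 1455 in si12A and 1529, 3352 and 1068 in si12C. Nr4a2 had 698, 1482 and 533 in si12A and 481, 759 and 326 in si12C. The groups overlapped in both genes and mouse 2 was high under both siRNAs, while within each of the 3 mice si12A was above si12C. The log2 fold change was 0.66 ± 0.13 for Nr4a1 (adjusted p = 0.0126) and 0.75 ± 0.15 for Nr4a2 (adjusted p = 0.0134).

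The same order within every mouse, with overlap between the groups, was seen for 3 further members. Egr2, a zinc finger transcription factor, had 248, 415 and 174 scaled counts in si12A and 158, 194 and 147.8 in si12C. Fosb, a subunit of AP-1, had 647, 1079 and 565 in si12A and 454, 567 and 439 in si12C. In both, the si12A sample of mouse 2 was the highest of the 6 and mouse 3 differed least, with log2 ratios of 0.24 for Egr2 and 0.36 for Fosb in that mouse. The fitted values were 0.68 ± 0.17 for Egr2 (adjusted p = 0.0333) and 0.61 ± 0.15 for Fosb (adjusted p = 0.0245). Dusp1, a phosphatase that switches off MAP kinases, had 199.7, 570.1 and 138 counts in si12A and 127, 352 and 102 in si12C. The si12C sample of mouse 2 exceeded the si12A samples of mouse 1 and mouse 3, and the fitted value was 0.61 ± 0.13 (adjusted p = 0.0167).

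Some early genes lay on the other side. Ier3, an early gene linked to survival, was at -0.47 ± 0.11 (adjusted p = 0.0239) and Myc, a driver of growth, at -0.36 ± 0.09 (adjusted p = 0.0333). Both were lower in si12A in 3 of 3 mice, and both missed the fold minimum of 0.5. Ier3 had scaled counts of 4931, 6782 and 4216 in si12A, 6764, 9524 and 5753 in si12C and 4278, 5909 and 3839.7 in siGLO. Within each mouse siGLO was the lowest and si12C the highest, and over siGLO Ier3 was at 0.18 ± 0.11 in si12A (adjusted p = 0.285) and 0.65 ± 0.11 in si12C (adjusted p = 0.0290). Ier3 and Tnf were the 2 transcripts called in si12C over siGLO (0.403% of those tested). Jun, another subunit of AP-1, was at 0.45 ± 0.14 (adjusted p = 0.0610). Of the 32 members, 23 had a fold change above 0 and 9 below.

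**Figure D2:**
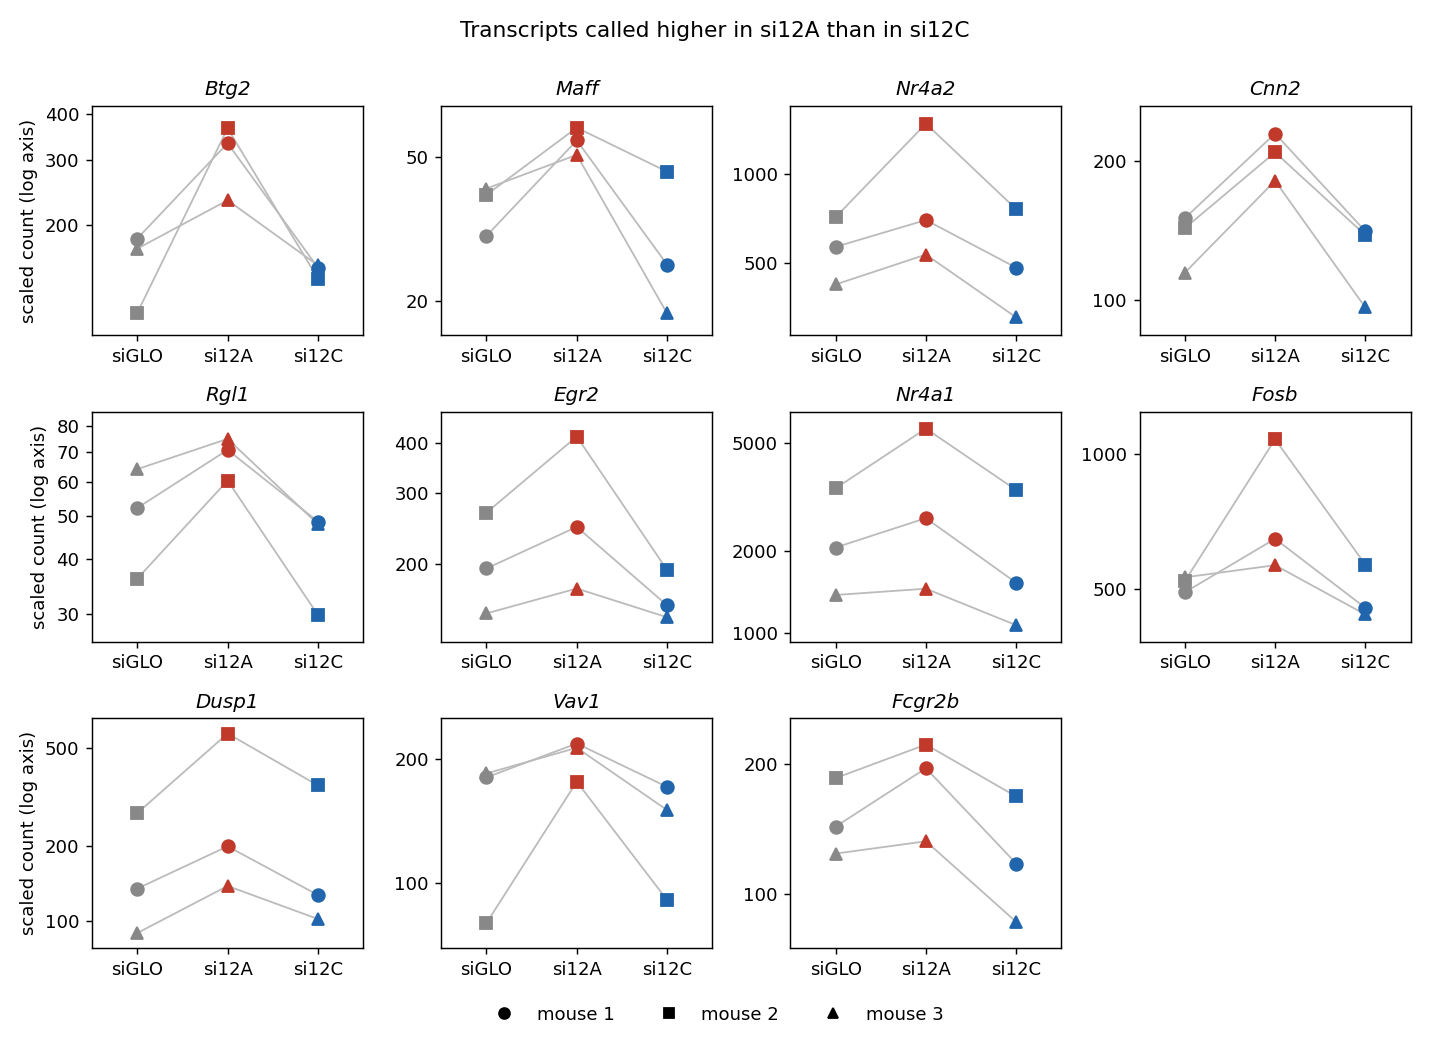
Scaled counts on log axes of 11 of the 12 transcripts called higher in si12A, in siGLO (grey), si12A (red) and si12C (blue), with lines joining the samples of 1 mouse. Within every mouse si12A lies above si12C in all 11, and the order of the mice differs between genes, with mouse 2 highest under both siRNAs for Nr4a1 and Dusp1.

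Other higher transcripts encode proteins of the cytoskeleton and of signalling. Cnn2, the actin-binding protein calponin 2, had 230.1, 209 and 182 scaled counts in si12A and 141, 138 and 96.1 in si12C. The groups stood well apart, and the log2 fold change was 0.74 ± 0.12 (adjusted p = 0.00397).

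Rgl1, an exchange factor for Ral GTPases, had 70.8, 60.3 and 75.0 scaled counts in si12A and 48.7, 29.9 and 48.0 in si12C. Vav1, a signalling protein that acts below the IgE receptor, had 218, 176 and 213 in si12A and 171, 91.2 and 151 in si12C. Neither pair of groups overlapped, and in both genes mouse 2 had the largest ratio. The log2 fold change was 0.69 ± 0.18 for Rgl1 (adjusted p = 0.0339) and 0.59 ± 0.16 for Vav1 (adjusted p = 0.0466). Rgl1 was below the background threshold in the si12C sample of mouse 2, and with the negative controls subtracted it was at 0.96 and no longer called (adjusted p = 0.0530). Fcgr2b, the inhibitory IgG receptor, had 196, 222 and 132 counts in si12A and 117, 168 and 85.9 in si12C. These groups overlapped, and the fold change was 0.59 ± 0.13 (adjusted p = 0.0167).

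Among the lower transcripts Tspan8, a tetraspanin of the cell surface, stood first. Its scaled counts were 18.5, 59.2 and 25.7 in si12A and 76.5, 256 and 82.2 in si12C. Every si12A sample lay below every si12C sample, and mouse 2 was the highest under both siRNAs. The log2 fold change was -1.95 ± 0.18 (adjusted p = 3.78e-05), and the ratios within the mice were -1.99, -2.10 and -1.64. In siGLO the counts were 63.3, 249.9 and 78.7, and in si12A+C they were 24.4, 53.4 and 23.2, so within each mouse the samples with the Zc3h12a cocktail were the low ones. The si12A sample of mouse 1 lay below its background threshold of 19.6. Ptprb, a receptor tyrosine phosphatase known from endothelium, had 16.0, 26.2 and 12.5 counts in si12A and 26.1, 96.9 and 36.0 in si12C. Only 1 of 3 si12A samples passed the background, the groups overlapped, and the fold change was -1.42 ± 0.35 (adjusted p = 0.0291). In siGLO Ptprb had 22.9, 72.3 and 46.2 counts, and in si12A+C it had 47.7, 62.5 and 21.6. In mouse 1 the si12A+C sample was thus the highest, unlike for Tspan8. These counts are few, and with the negative controls subtracted the fold change was -2.45 for Ptprb and -2.46 for Tspan8, both still called.

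Of the secreted factors, 0 chemokines, cytokines or growth factors were called higher and few were called lower. Over all transcripts tested 2.42% were called in each direction, so such small counts do not set secreted factors apart. Of 18 chemokine ligands 1 was called lower, with a median of -0.28 (-0.021 when scaled on the well-detected reference genes), and 13 of the 18 had a fold change below 0. The called member was Ccl5, which attracts T cells and monocytes. It had 65.7, 56.9 and 30.1 scaled counts in si12A and 149.6, 101 and 76.7 in si12C. The groups did not overlap, and the log2 fold change was -1.13 ± 0.18 (adjusted p = 0.00397). Ccl9 was at -0.69 ± 0.20 (adjusted p = 0.0560) and Ccl7, a ligand of CCR2 with 13185 to 21505 counts in si12A, at 0.40 ± 0.12 (adjusted p = 0.0560). Cxcl2, which attracts neutrophils, had fewer than 100 counts in every sample and was at -0.66 ± 0.21 (adjusted p = 0.0610).

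Of 38 cytokines and growth factors, 0 were called higher and 2 lower, against 2.42% in each direction over all tested. Their median was -0.10 (0.16 when scaled on the well-detected reference genes). Csf2, encoding GM-CSF, had 2948, 14466 and 2279.9 scaled counts in si12A and 6744, 16520 and 4691 in si12C. Counts in the samples of mouse 2 were several times those of the other mice under both siRNAs. There the log2 ratio was only -0.19, against -1.19 in mouse 1 and -1.04 in mouse 3. The fitted value was -0.80 ± 0.19 (adjusted p = 0.0239). Mif, the macrophage migration inhibitory factor, had 201, 208 and 254 counts in si12A and 262, 403 and 305 in si12C. These groups did not overlap, and the fold change was -0.52 ± 0.14 (adjusted p = 0.0466).

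Of 6 inflammatory genes that the study names, some of them from this assay and so with no independence from it, 0 were called. Tnf, the gene of tumour necrosis factor, had 5126, 19316 and 4275 scaled counts in si12A and 6781, 13303 and 5406 in si12C. The groups overlapped and the mice disagreed, with si12A higher in mouse 2 alone. The log2 fold change was -0.06 ± 0.15, with a 95% interval of -0.39 to 0.27 (adjusted p = 0.829), so differences within that interval are not excluded. Over siGLO, Tnf was called higher in both depletions, at 0.72 ± 0.15 in si12A (adjusted p = 0.0157) and 0.79 ± 0.15 in si12C (adjusted p = 0.0459). Il2, a T cell growth factor, had 662, 2102 and 477 counts in si12A and 1049, 1430.2 and 634 in si12C. It was again higher under si12A in mouse 2 alone, and its value was -0.15 ± 0.25 with an interval of -0.69 to 0.39 (adjusted p = 0.753).

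Il1b, a fever-inducing cytokine, had 119.7, 259 and 254 scaled counts in si12A and 200.1, 224 and 315 in si12C. The same pattern of mice was seen, with a fold change of -0.26 ± 0.18 and an interval of -0.64 to 0.13 (adjusted p = 0.376). Nfkbiz, a cofactor that NF-kB induces, had 774, 1747 and 626 counts in si12A and 773, 1204 and 671 in si12C. Mouse 1 showed almost no difference and mouse 2 a higher si12A value, and the fold change was 0.17 ± 0.19, with an interval of -0.24 to 0.58 (adjusted p = 0.620).

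Il6 and Il13 were among the most abundant transcripts. Il6 had 21400, 31062 and 21160 scaled counts in si12A and 19438, 23812 and 20273 in si12C. It was higher under si12A in 3 of 3 mice by a small amount, 0.20 ± 0.12 with an interval of -0.06 to 0.45 (adjusted p = 0.298). Il13, a type 2 cytokine, had 19022, 27236 and 18043 counts in si12A and 17771, 26218 and 17678 in si12C, a difference of 0.06 ± 0.10 with an interval of -0.15 to 0.27 (adjusted p = 0.744). The list of known Regnase-1 targets, which shares members with these genes, had 0 of 9 higher and 1 lower, Csf2, with a median of -0.26 (0.014 when scaled on the well-detected reference genes).

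Genes of dividing cells made up another group. Of 9 tested members of the cell cycle list, also chosen with earlier results known, 2 were called lower, against 2.42% over all tested. All 9 had a fold change below 0, and the median was -0.50, which ran from -0.81 to -0.23 over the 6 other scalings. Ccnb2, cyclin B2 of the mitotic kinase, had 85.1, 97.9 and 64.7 scaled counts in si12A and 127, 175 and 93.3 in si12C. Its groups overlapped, and its fold change was -0.64 ± 0.14 (adjusted p = 0.0216). 2810417H13Rik, now named Pclaf, encodes a factor that binds the replication clamp PCNA, and it had 92.7, 129.7 and 86.0 counts in si12A and 141, 201 and 132 in si12C. Its groups did not overlap, and the 3 mice gave nearly the same log2 ratio, -0.60, -0.63 and -0.61 (fitted -0.62 ± 0.14, adjusted p = 0.0196). Cdc20, an activator of the anaphase-promoting complex, was at -0.50 ± 0.15 (adjusted p = 0.0576), and Top2a, a topoisomerase of dividing cells, at -0.43 ± 0.13 (adjusted p = 0.0576). Of 18 survival and apoptosis genes 0 were called, with a median of -0.06.

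The remaining lower transcripts were abundant genes of protein folding, redox balance, translation and receptor signalling. Calr, the endoplasmic reticulum chaperone calreticulin, had 2734, 2279 and 2558 scaled counts in si12A and 4215, 3698 and 3763 in si12C. The groups were far apart and the mice alike, with a fold change of -0.62 ± 0.10 (adjusted p = 0.00544). Txn1, the redox protein thioredoxin, had 2902, 2740.1 and 2884 counts in si12A and 3749.7, 4786 and 3848 in si12C. It did not overlap either, and its fold change was -0.52 ± 0.12 (adjusted p = 0.0239). Eef1g, a translation elongation factor that served as a reference gene on the panel, had 863, 784 and 776 counts in si12A and 1232, 1221 and 1005 in si12C, again without overlap (-0.51 ± 0.11, adjusted p = 0.0167). Of the 20 reference genes it was the only one called, with a median of -0.06 over the list, and Ppia, another of them, was at -0.50 ± 0.12 (adjusted p = 0.0239).

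Tyrobp, the adaptor DAP12 of myeloid receptors, had 1699.8, 3356 and 2163 scaled counts in si12A and 2591, 4971 and 3011 in si12C. Its groups overlapped, but the ratios within the mice were alike at -0.61, -0.57 and -0.48 (fitted -0.55 ± 0.11, adjusted p = 0.0126). The macrophage and monocyte list had 0 of 7 tested members called. Crabp2, which carries retinoic acid, had 226, 178 and 254 counts in si12A and 311, 246 and 423 in si12C. The si12C sample of mouse 2 lay below the si12A sample of mouse 3, and the fold change was -0.56 ± 0.12 (adjusted p = 0.0167). It was the only 1 of 21 lipid and eicosanoid genes called. Fasn, the fatty acid synthase, was at -0.50 ± 0.12 (adjusted p = 0.0239), just short of the fold minimum.

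**Figure D3:**
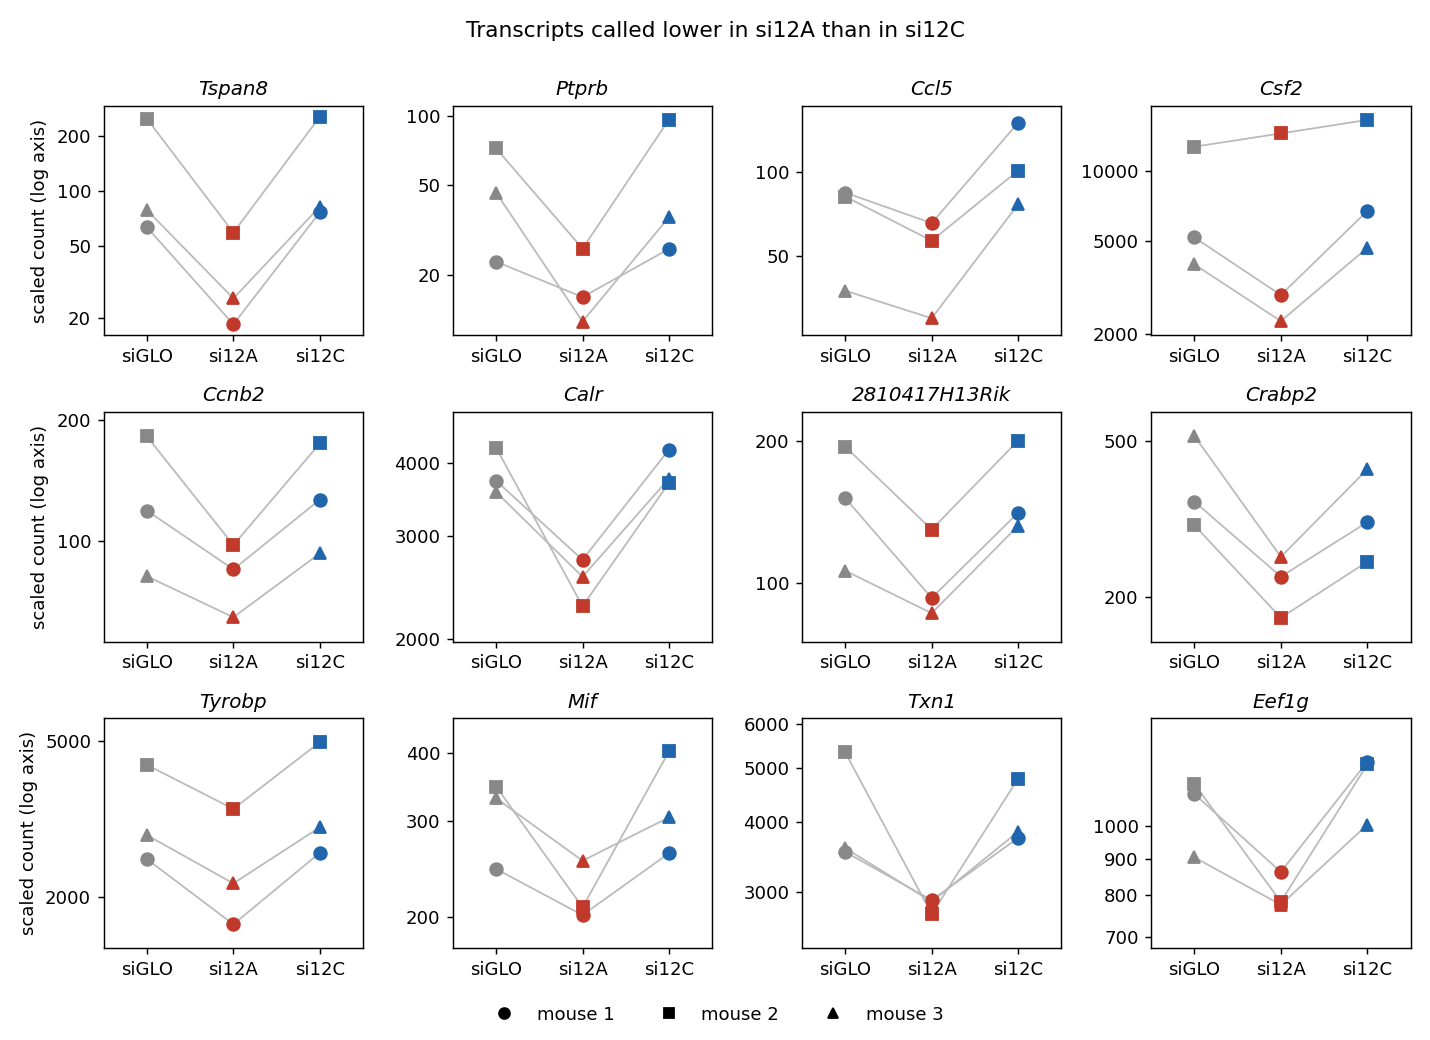
Scaled counts on log axes of the 12 transcripts called lower in si12A, in siGLO (grey), si12A (red) and si12C (blue), with lines joining the samples of 1 mouse. Within every mouse si12A lies below si12C in all 12. For Csf2 the lines of mouse 2 are nearly level, while for Calr the 3 mice differ by similar amounts.

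Other gene groups held no called member beyond those named above, where 4.84% of all transcripts tested were called. NF-kB signalling and feedback genes had 0 of 21 called with a median of 0.23 (-0.076 when scaled on the positive controls), and 17 of them had a fold change above 0. Tnfaip8, an NF-kB-induced regulator of cell death, was at 0.34 ± 0.09 (adjusted p = 0.0339), short of the fold minimum. Cytokine receptor and JAK-STAT genes had 0 of 25 called with a median of 0.21 (-0.11 when scaled on the positive controls), Stat6, the transcription factor of IL-4 signalling, being at 0.35 ± 0.11 (adjusted p = 0.0576). Interferon response genes had 0 of 16 called, with a median of 0.05, and antigen presentation genes 0 of 16, with a median of -0.14. Of 24 mast cell identity and granule genes 0 were called, with a median of 0.14 (-0.18 when scaled on the positive controls). Kit, the receptor for stem cell factor, was at 0.15 ± 0.13 (adjusted p = 0.517), Fcer1a, the IgE-binding receptor chain, at 0.03 ± 0.08 (adjusted p = 0.835) and Ms4a2, the beta chain of that receptor, at 0.27 ± 0.11 (adjusted p = 0.131). Hdc, the enzyme that makes histamine, was at 0.30 ± 0.12 (adjusted p = 0.131), and the granule protease Cpa3 was at -0.22 ± 0.12 (adjusted p = 0.260). The proteases Cma1 and Tpsb2 were at -0.07 ± 0.08 (adjusted p = 0.624) and 0.10 ± 0.18 (adjusted p = 0.758), and the transcription factor Gata2 at 0.18 ± 0.12 (adjusted p = 0.335).

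Set beside siGLO, the samples of si12A lay farther from it than those of si12C for most of the 24 transcripts. Both of these comparisons use the same 3 siGLO samples, so their values are not independent and are given side by side only. The log2 fold change of si12A over siGLO lay farther from 0 than that of si12C over siGLO for 22 of the 24. These 24 were called on the gap between si12A and si12C, and the same share over all 496 was not counted. In yield too si12A lay farther from siGLO, the positive controls averaging 603 in si12A, 424 in si12C and 368 in siGLO. The part of yield in these distances was not tested. For Btg2 they were 0.94 ± 0.20 in si12A and -0.07 ± 0.21 in si12C, and for Calr -0.61 ± 0.10 and 0.02 ± 0.10. The exceptions were Ccl5, at -0.41 ± 0.18 in si12A and 0.72 ± 0.18 in si12C, and Fcgr2b, at 0.27 ± 0.13 and -0.32 ± 0.13. Against siGLO, 12 of the 24 were called in si12A, where 5.44% of all transcripts tested were called (1.81% higher and 3.63% lower), and 0 of the 24 in si12C, where 0.403% were.

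**Figure D4:**
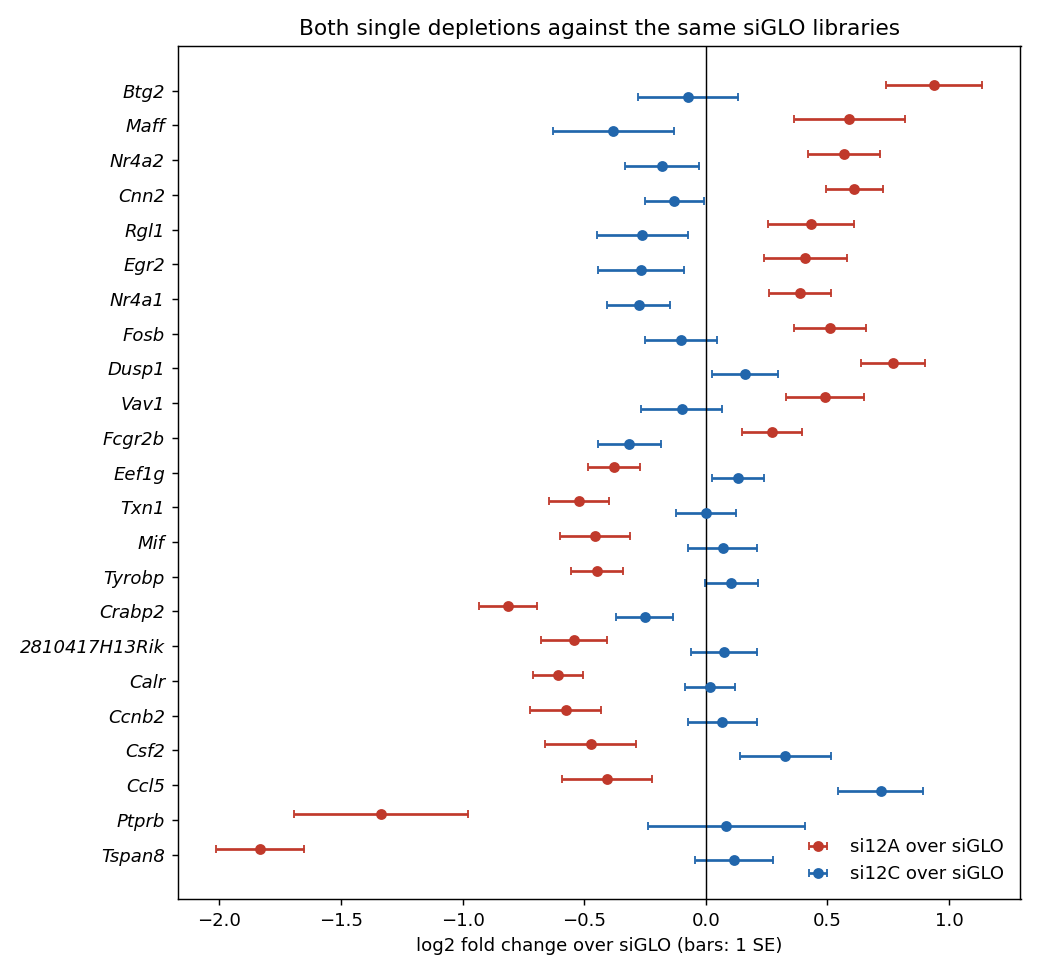
Log2 fold change over siGLO (x axis, bars are 1 SE) in si12A (red) and si12C (blue) for 23 of the 24 called transcripts, from the fit with the mouse as a block. The red points range from -1.83 to 0.94 and most blue points lie near 0, with Ccl5 at 0.72 the farthest.

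Promoters of the called transcripts, from 250 bases before to 50 after each start, were taken from RefSeq (GRCm38.p6), which matched 11 of the 12 higher and 7 of the 12 lower genes, some with several starts. Motifs were searched on both strands. A gene counted when any of its starts had the motif, and Egr2 had 5 starts, Maff 3 and Rgl1 2. The shares over all count single promoters, so both are in unlike units. The cAMP response element TGACGTCA was found in 1.79% of all 32851 promoters, in 3 of 11 higher genes and in 1 of 7 lower genes. The CArG box of serum response factor was found in 1.63% of promoters, in 2 higher and 0 lower genes. The NF-kB motif was found in 4.51%, in 3 higher and 0 lower genes. The AP-1 motif, TGACTCA or TGAGTCA, was found in 5.2% of promoters and in 0 of the higher and 0 of the lower genes. The core TGACG, which every full cAMP response element contains, was found in 20.8%, in 7 higher and 2 lower genes. Each window below shows a full cAMP response element or CArG box in capitals, for 4 early genes, for Cnn2 and for Mif, the lower gene with a cAMP response element. Another CArG box of Egr2 is not shown.
Btg2, chr1:134079303-134079332, minus strand: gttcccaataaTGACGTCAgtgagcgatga
Dusp1, chr17:26508597-26508626, minus strand: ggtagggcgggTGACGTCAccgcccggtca
Maff, chr15:79347480-79347509, plus strand: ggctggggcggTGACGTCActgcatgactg
Mif, chr10:75860283-75860312, minus strand: gggacgtagtcTGACGTCAgcggaggcgga
Egr2, chr10:67537787-67537816, plus strand: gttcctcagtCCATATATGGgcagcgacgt
Cnn2, chr10:79988534-79988563, plus strand: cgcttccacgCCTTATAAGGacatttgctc
The shares of higher and lower genes were not compared by a test, and a match describes these letters only.

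The calls rest on few libraries and on the mouse block. Without the block, 0 transcripts were called, the smallest adjusted p was 0.468, and 28 had an unadjusted p under 0.05. Without mouse 1 the calls were 19 higher and 45 lower, without mouse 2 they were 2 and 8, and without mouse 3 they were 2 and 2. Leaving out the si12A library of mouse 1, 2 or 3 gave 7 and 10, 3 and 7, or 7 and 3, and leaving out the si12C library gave 2 and 7, 4 and 5, or 3 and 5. Tspan8, Ccl5, Cnn2 and Calr kept their call with any 1 of these 6 libraries left out, but without mouse 3 Ccl5 (-1.07, adjusted p = 0.0601), Cnn2 (0.61, adjusted p = 0.101) and Calr (-0.70, adjusted p = 0.0601) were not called. Tspan8 and Tyrobp were the 2 transcripts called without each of the 3 mice in turn. Without 1 library, the log2 fold change ran from -2.06 to -1.86 for Tspan8, from -1.26 to -1.02 for Ccl5, from 0.66 to 0.80 for Cnn2 and from -0.68 to -0.53 for Calr. The 20 others lost their call in at least 1 of the 6. The direction of all 24 was the same under every alternative that tested them.

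**Figure D5:**
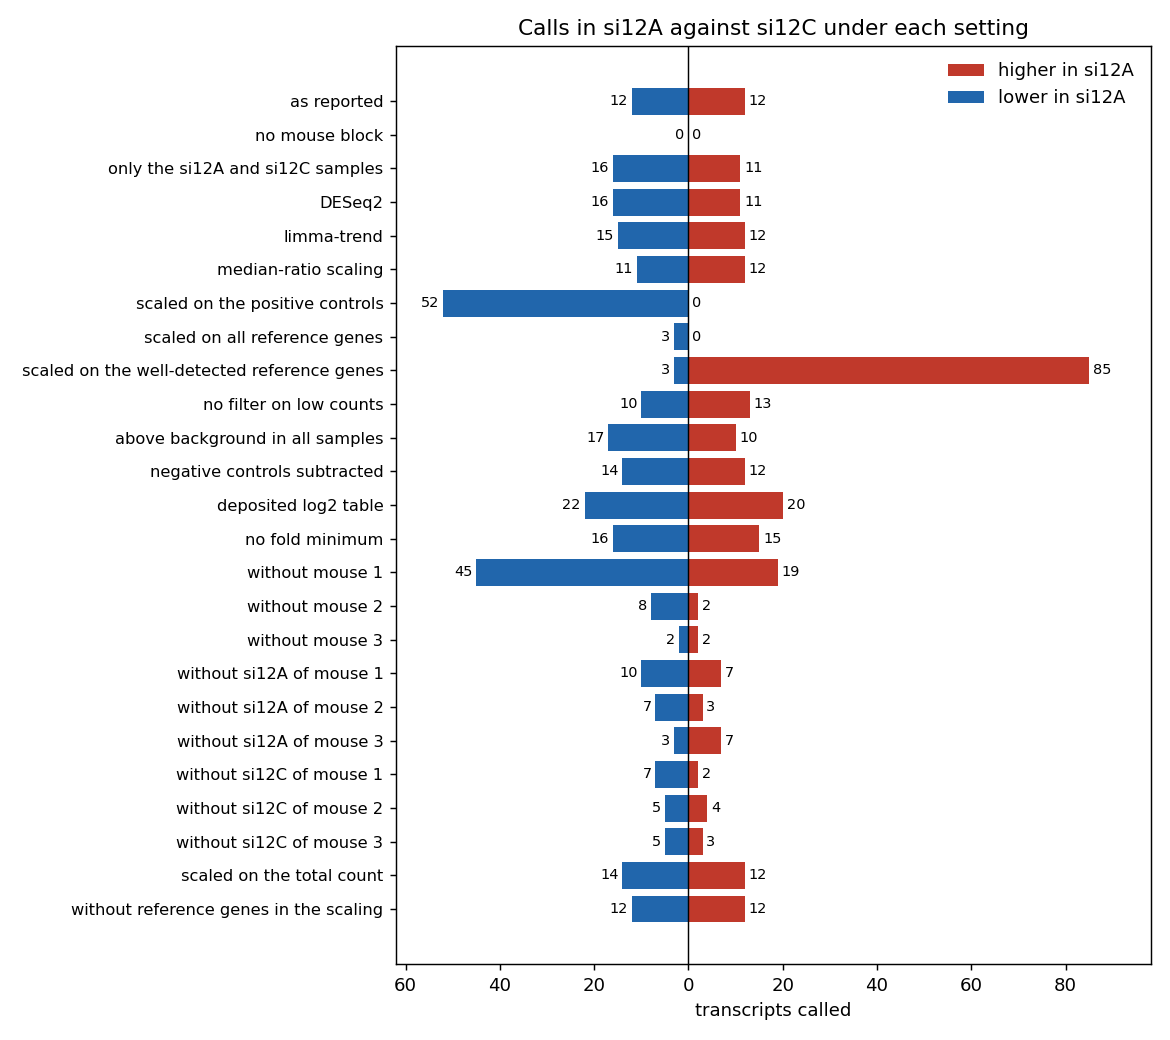
Number of transcripts called higher (red, to the right) and lower (blue, to the left) in si12A under each setting. The 12 and 12 calls as reported compare with 0 and 0 without the mouse block, 0 and 52 when scaled on the positive controls and 85 and 3 when scaled on the well-detected reference genes.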

How the data were processed

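The authors deposited raw nCounter probe counts of 12 samples, with 8 negative and 6 positive control probes and 20 reference genes, and a log2 table scaled by the authors, the settings of which are not stated in the sources used here. The log2 table covers 325 probes and served only as an alternative. Replicates were not pooled. No column of the authors' own comparisons was used.

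A probe was tested when it exceeded the mean plus 2 SD of its library's negative controls in at least 3 samples. Counts were fitted with edgeR 4.0.16 (R 4.3.3, quasi-likelihood test, TMM scaling) over all 12 samples with group and mouse as terms, with Benjamini-Hochberg adjustment over 496 probes. Scaled counts are counts divided by the effective library size, times the mean of that size. The titles give a replicate number and the count headers add a code shared by the 4 groups of each number, but neither names an animal. The number was used as a pair, called mouse here, because 12 of 12 libraries correlated best with their own number in their deviations from the group means. These correlations were 0.166 to 0.864 between samples of 1 number (18 pairs, all over 0.1). Between samples of different numbers they were -0.752 to 0.628 (36 pairs), so both ranges overlap.

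DESeq2 1.42.0 and limma 3.58.1, other scalings, filters, fold minimums and sample omissions were alternatives, and 2 scalings were added after seeing the data. The fit was also run on counts simulated from its own estimates, which cannot show how well the model describes these data. Counts give counting precision only, and totals per sample were 439015 to 795758.

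The comparison, its members and the gene lists were chosen with earlier results of these data known. Of the called genes 1 is not reported here. Named were the other called genes, 6 inflammatory genes of the study, mast cell genes, up to 3 uncalled members per list with the smallest p, and 10 of 27 genes just outside the thresholds.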

Additional observations from a re-analysis of the deposited data

Results flagged for a closer look

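In 9 of the 24 called transcripts, si12A and si12C lay on opposite sides of siGLO in each of the 3 mice. The difference between both is the comparison of si12A with si12C itself, tested in edgeR with the mouse as a block. Both sides are measured from the same siGLO samples. The 24 were called on the gap between si12A and si12C, which favours opposite sides, and the same share over all transcripts tested was not counted. The log2 fold changes of si12A over si12C were -1.95 for Tspan8, -1.13 for Ccl5, -0.55 for Tyrobp and -0.51 for Eef1g. They were 0.74 for Cnn2, 0.69 for Rgl1, 0.68 for Egr2, 0.66 for Nr4a1 and 0.59 for Fcgr2b. For none of the 9 was the change of si12C over siGLO called, so a shift of si12C away from siGLO is not established for them. In mouse 3 the scaled counts of si12C and siGLO were close for Egr2 (147.8 and 151.1) and Tspan8 (82.2 and 78.7). They were farther apart for Ccl5 (76.7 and 37.8).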

How the results depend on the processing

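Leaving out the mouse block gave 0 higher and 0 lower calls, so the calls depend on the pairing of the samples by mouse. Using the positive controls as the scale, 0 transcripts were called higher and 52 lower. Those scaled on all 20 reference genes were 0 and 3, and the 10 well-detected reference genes gave 85 and 3. The deposited log2 table gave 20 and 22. With 1 mouse or 1 library left out, the calls ran from 2 to 19 higher and from 2 to 45 lower. DESeq2, limma, the 6 samples alone, median-ratio and total count scaling, scaling without reference genes, both filters, negative control subtraction and no fold minimum stayed within 1.5 times of 12 in each direction.

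Of the 24 called transcripts, Tspan8 and Ccl5 kept their call under all 6 other scalings. Changes of sign concerned uncalled genes only. On the positive controls the log2 fold change was -0.18 for Nfkbiz, -0.13 for Il6, -0.27 for Il13, -0.18 for Kit, -0.29 for Fcer1a, -0.058 for Ms4a2, -0.034 for Hdc, -0.23 for Tpsb2 and -0.13 for Gata2. Scaled on every reference gene it was -0.064 for Il13, -0.085 for Fcer1a and -0.023 for Tpsb2. On the well-detected ones it was 0.21 for Tnf, 0.014 for Il1b, 0.13 for Il2, 0.044 for Cpa3 and 0.20 for Cma1. Without the block it was 0.17 for Tnf and 0.058 for Il2. With 1 mouse or library left out, values ran from -0.38 to 0.11 for Tnf, from -0.56 to 0.088 for Il2, from -0.073 to 0.31 for Nfkbiz, from -0.0037 to 0.064 for Fcer1a and from -0.044 to 0.22 for Tpsb2. The cause was not tested. Tspan8, Ptprb, Maff and Rgl1 had samples below the background threshold, which limits their precision, and subtracting the negative controls moved Ptprb from -1.42 to -2.45.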

Other observations

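Several transcripts lay just outside the thresholds and moved the same way in 3 of 3 mice. Cytip, which regulates leukocyte adhesion, was at 0.46 ± 0.11 (adjusted p = 0.0239), and the chaperone Dnajb6 at 0.42 ± 0.11 (adjusted p = 0.0358). Tnfrsf9, the costimulatory receptor 4-1BB, was at -0.71 ± 0.21 (adjusted p = 0.0560), with scaled counts of 40.5, 34.1 and 51.4 in si12A and 68.7, 67.0 and 71.1 in si12C, which did not overlap. Hras, a small GTPase, was at -0.57 ± 0.17 (adjusted p = 0.0560), with 124, 109 and 129 counts in si12A and 150.5, 231 and 174 in si12C, also without overlap. Rasal1, a Ras GTPase activator, had a large fold change of -1.77 ± 0.52 (adjusted p = 0.0560) that came from mouse 2 and mouse 3, since the log2 ratio was -0.09 in mouse 1. Its scaled counts were few, 25.3, 27.3 and 7.35 in si12A and 27.0, 189 and 34.2 in si12C. The si12A sample of mouse 3 lay below its background threshold of 16.1.

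The point at 2.51 in the plot of all transcripts is Tbp, a TATA-binding protein gene among the 20 reference genes, singled out here after its values were seen. Its scaled counts were 20.2, 10.2 and 35.3 in si12A, 8.70, 1.42 and 0.924 in si12C and 1.05 to 22 in siGLO. Only 2 of the 6 si12A and si12C samples passed the background, the difference was 2.51 ± 1.04 (adjusted p = 0.132), and Tbp enters the scaling on all reference genes but not that on the well-detected ones.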
